A study of Mus musculus with 3 samples.

Results

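The sites described here are the single-base positions on mouse chromosome X at which reads with the same variant base were listed in all 3 LSD1 chromatin libraries of the study. A site was kept when its position, its reference base and its variant base occurred in the lists of all 3 libraries, and when it lay outside chrX:76590001-76600000 and chrX:143480001-143490000. These 2 stretches of 10 kb would have added 29 and 2 sites. Members were thus chosen by read listings, that is by at least 1 variant read in each library, and depth and variant reads at them are given as description. The rule kept 2961 of the 652139 single-base sites that were listed in any library. They are called shared sites below, and outside the same 2 stretches a further 59915 sites were listed in exactly 2 libraries and 589175 in exactly 1.

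Chromatin bound by LSD1 was pulled down with the antibody ab17721 and sequenced from 3 samples, with 1 library per group. MidK stands for mouse embryonic fibroblasts that carried the reprogramming vector SeVdp(fKOSMaB), a Sendai virus vector, and were taken at day 20 with 30 nM Shield1. LowK stands for fibroblasts with the same vector at day 20 without Shield1. MEF stands for embryonic fibroblasts at day 0, with no vector named in their label. Shield1 is a small ligand that protects proteins tagged with a destabilising domain from degradation. With 1 library per group, a difference between groups cannot be told apart from a difference between libraries, and no p-value was computed. No input library was used, so read numbers are coverage and not enrichment. The reads are genomic DNA, so marker expression could not check the labelled cell types. The sex of the cells, the strain that carries the variant base and the number of animals were not stated by the labels or the design text.

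LSD1, encoded by Kdm1a, is a flavin-dependent demethylase that removes methyl groups from lysine 4 of histone H3 and works at promoters and enhancers together with the CoREST co-repressor. Chromosome X is subject to X inactivation in female cells, in which most genes of one copy are silenced and a few escape; reprogramming to pluripotency can reactivate the silent copy. At a position where the parental chromosomes differ, a read can be assigned to the B6 base (the reference, from C57BL/6) or to the variant base. Every listed site carries at least 1 variant read by construction. A site is therefore either variant-only, with no B6 read, or has both alleles read.

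Of the windows around gene starts, 60 held shared sites. The RefSeq sequences of 7 of them (GRCm38.p6, the build called mm10) are shown because shared sites gathered at gene starts and because the libraries differed in allele state there. The 7 were chosen after their values were seen. Each runs 5′ to 3′ on the strand of its gene, from 250 bases before the start to 50 after it. The windows lie, in the order shown, for Gm44504 at chrX:74373300-74373599 on the minus strand, Klhl15 at chrX:94234680-94234979 on the plus strand, Cited1 at chrX:102250727-102251026 on the minus strand and Cldn34c1 at chrX:123103273-123103572 on the plus strand. The others lie for Cenpi at chrX:134307834-134308133 on the plus strand, Nup62cl at chrX:140062519-140062818 on the minus strand and Msl3 at chrX:168673823-168674122 on the minus strand. Capitals mark the B6 base at each shared variant site.
Gm44504: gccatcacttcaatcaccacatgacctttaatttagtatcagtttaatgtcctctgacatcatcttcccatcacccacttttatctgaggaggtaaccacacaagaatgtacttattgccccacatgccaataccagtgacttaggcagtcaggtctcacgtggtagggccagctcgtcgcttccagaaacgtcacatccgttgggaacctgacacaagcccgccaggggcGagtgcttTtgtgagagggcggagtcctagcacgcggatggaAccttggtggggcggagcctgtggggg
Klhl15: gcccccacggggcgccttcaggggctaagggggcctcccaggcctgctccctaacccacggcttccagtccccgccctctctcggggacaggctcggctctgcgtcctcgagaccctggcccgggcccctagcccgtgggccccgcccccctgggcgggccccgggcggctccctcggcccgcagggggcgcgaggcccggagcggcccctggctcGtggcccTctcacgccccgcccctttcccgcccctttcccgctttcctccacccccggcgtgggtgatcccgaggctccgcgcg
Cited1: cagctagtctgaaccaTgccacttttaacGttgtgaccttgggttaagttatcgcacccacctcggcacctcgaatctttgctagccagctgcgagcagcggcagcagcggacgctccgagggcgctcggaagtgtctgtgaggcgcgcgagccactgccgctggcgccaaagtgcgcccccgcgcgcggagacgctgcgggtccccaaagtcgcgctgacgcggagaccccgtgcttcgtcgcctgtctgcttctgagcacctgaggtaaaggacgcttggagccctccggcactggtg
Cldn34c1: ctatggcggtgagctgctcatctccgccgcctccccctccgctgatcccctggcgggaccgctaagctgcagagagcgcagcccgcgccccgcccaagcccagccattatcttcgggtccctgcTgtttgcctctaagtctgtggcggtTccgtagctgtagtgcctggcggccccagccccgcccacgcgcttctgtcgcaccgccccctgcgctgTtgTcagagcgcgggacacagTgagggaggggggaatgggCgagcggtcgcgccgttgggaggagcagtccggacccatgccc
Cenpi: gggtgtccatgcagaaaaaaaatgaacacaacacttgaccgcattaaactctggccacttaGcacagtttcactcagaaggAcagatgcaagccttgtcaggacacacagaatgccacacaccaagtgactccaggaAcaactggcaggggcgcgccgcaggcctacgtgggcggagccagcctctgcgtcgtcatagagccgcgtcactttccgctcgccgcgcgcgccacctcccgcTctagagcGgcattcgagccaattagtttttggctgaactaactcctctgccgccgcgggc
Nup62cl: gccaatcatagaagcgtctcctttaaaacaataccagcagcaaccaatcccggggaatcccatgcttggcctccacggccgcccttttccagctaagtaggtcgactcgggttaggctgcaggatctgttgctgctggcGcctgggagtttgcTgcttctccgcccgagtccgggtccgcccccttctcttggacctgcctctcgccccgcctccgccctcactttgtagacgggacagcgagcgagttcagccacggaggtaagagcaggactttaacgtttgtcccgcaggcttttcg
Msl3: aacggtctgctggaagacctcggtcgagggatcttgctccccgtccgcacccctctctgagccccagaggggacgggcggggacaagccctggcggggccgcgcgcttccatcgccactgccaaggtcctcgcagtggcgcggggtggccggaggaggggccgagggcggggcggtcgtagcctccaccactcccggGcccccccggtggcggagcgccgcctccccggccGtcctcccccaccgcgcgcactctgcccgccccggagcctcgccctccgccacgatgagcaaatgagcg
The B6 base in the lists equalled the RefSeq base at 75 of 75 distinct shared sites in such windows. Windows with a shared site were 60 of 1223 on the chromosome (4.91%), and they belonged to 57 genes. Their median GC content was 64.8%, against 50.3% in the other windows, and their median number of CpG dinucleotides was 24, against 6. The B6 base lay within a CpG at 22 of the 75 sites (29.3%), where 16.1% of the bases of these windows did.

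Shared sites lay close to gene starts more often than other listed sites. Within 1 kb of a RefSeq start lay 294 of the 2961 shared sites, or 9.93% (95% Clopper-Pearson interval 8.88% to 11.1%), against 2.85% of the sites listed in exactly 2 libraries and 1.35% of those listed in exactly 1. Such stretches made up 1.30% of the part of the chromosome that the lists cover. Within 250 bases the shares were 4.59%, 1.02% and 0.353%, in the same order of sets, and within 5 kb they were 15.6%, 8.78% and 6.37%. The median distance to a start was 45563 bases for shared sites, 59209 bases for sites in 2 lists and 73227 bases for sites in 1 list. Taken by library, sites within 1 kb of a start were 1.46% of all listed in MidK, 2.40% in LowK and 1.47% in MEF. The rule favours positions with many reads in each library, so this gathering describes where the libraries were read in common, and coverage from LSD1 binding and coverage from GC-rich DNA cannot be told apart without an input.

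**Figure D1:**
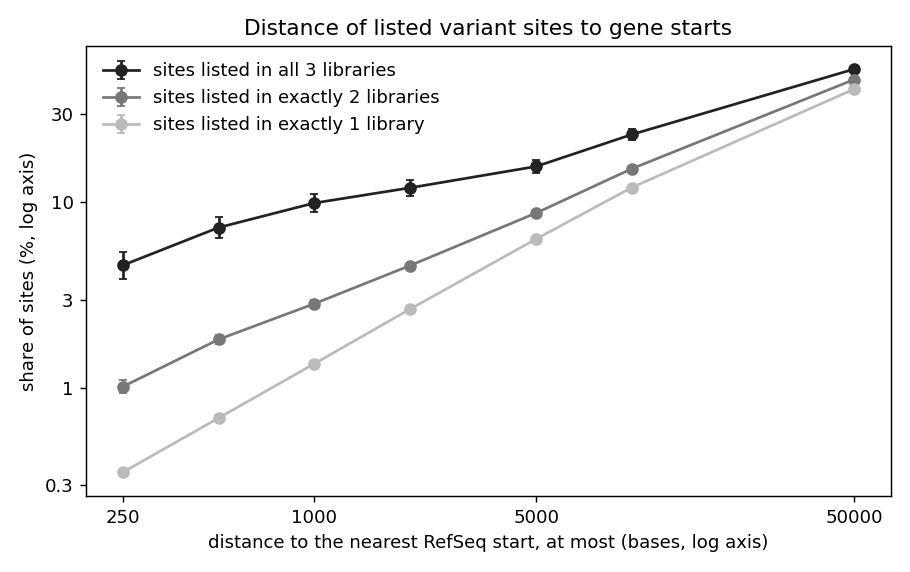
Share of listed sites (log axis, percent) within a given distance of the nearest RefSeq gene start (log axis, bases), for sites listed in all 3, exactly 2 and exactly 1 of the libraries; points are shares and bars are exact 95% intervals. The curve of the shared sites lies highest at every distance drawn, and it stands furthest apart at 250 bases, with 4.59% against 1.02% and 0.353%.

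Placement in gene bodies differed less. Inside a gene body lay 1127 shared sites, or 38.1% (36.3% to 39.8%), against 35.3% of sites in exactly 2 lists and 33.4% of sites in exactly 1. Gene bodies made up 31.9% of the listed stretch. Protein-coding genes held 32.4% of the shared sites, long noncoding genes 4.49% and pseudogenes 2.60%. At least 1 shared site was found in 466 of 2512 genes in the table, among them 354 of 966 protein-coding genes, and 215 genes held exactly 1. The gene table gives no exons, so exons, introns and UTRs were not annotated. In the 17 full stretches of 10 Mb, the number of shared sites ran from 84 to 256 with a median of 164, and the partial stretch at the distal end held 17.

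The base changes were mostly transitions. A-to-G or T-to-C changes made up 1011 of the 2961 sites and C-to-T or G-to-A changes 900, while the 4 kinds of transversion had 230 to 307 each. Transitions were 64.5% of the shared sites (62.8% to 66.3%), against 63.8% of sites in exactly 2 lists and 60.9% of sites in exactly 1. The variant base itself agreed between libraries almost everywhere a position was listed in all of them. Of 2990 positions in all 3 lists, 2961 had the same variant base in each (99.0%, 98.6% to 99.3%), and at 29 at least 1 library had another base. For pairs of libraries the agreement was 99.2% of 11333 positions for MidK and LowK, 99.4% of 19831 for MidK and MEF, and 99.7% of 37953 for LowK and MEF.

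Depth at the shared sites was low and concentrated in few positions. The shared sites held 7016 reads with an allele in MidK, 6832 in LowK and 8556 in MEF, or 3.45% of all reads listed in MidK, 2.31% in LowK and 0.969% in MEF. The mean depth was 2.37 reads per site in MidK, 2.31 in LowK and 2.89 in MEF, against 1.66, 1.56 and 2.13 at the other sites of the MidK, LowK and MEF lists. A single read covered 62.5% of the shared sites in MidK, 55.6% in LowK and 38.2% in MEF. At least 10 reads covered 45 sites in MidK, 46 in LowK and 68 in MEF. At least 2 reads in each library were found at 462 sites, at least 5 at 69, at least 10 at 24 and at least 50 at 5. The deepest 1% of the shared sites, 30 in number, held 23.4% of the shared-site reads in MidK, 15.0% in LowK and 10.3% in MEF. Some reads carried no allele: they were 7.05% of the depth at shared sites in MidK, 5.84% in LowK and 5.22% in MEF.

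Both alleles were read at 508 of the 2961 shared sites in MidK (17.2%, 15.8% to 18.6%), at 469 in LowK (15.8%, 14.5% to 17.2%) and at 707 in MEF (23.9%, 22.4% to 25.5%). At the other sites of each list the share was 15.2% in MidK, 9.49% in LowK and 17.3% in MEF. The state followed depth closely. At sites with exactly 2 reads, both alleles were read at 6.33% in MidK, 3.26% in LowK and 1.29% in MEF. At 3 to 4 reads the shares were 68.6% in MidK, 50% in LowK and 47.8% in MEF, and at 5 to 9 reads they were 91.4% in MidK, 82.8% in LowK and 72.8% in MEF. At 10 or more reads they were 93.3% in MidK, 87.0% in LowK and 88.2% in MEF. MEF was thus highest over all shared sites and lowest in each class from 2 to 9 reads. The same order of the libraries held at the other listed sites with 3 to 4 reads, at 76.7% in MidK, 55.9% in LowK and 48.6% in MEF. In every depth class from 2 reads up, shared sites had a lower both-allele share than the other sites of the same list. At exactly 2 reads the other sites stood at 19.1% in MidK, 7.14% in LowK and 1.51% in MEF. At 5 to 9 reads they stood at 97.4% in MidK, 86.1% in LowK and 77.8% in MEF. The higher shares of the shared sites over all depths are thus not matched for depth.

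**Figure D2:**
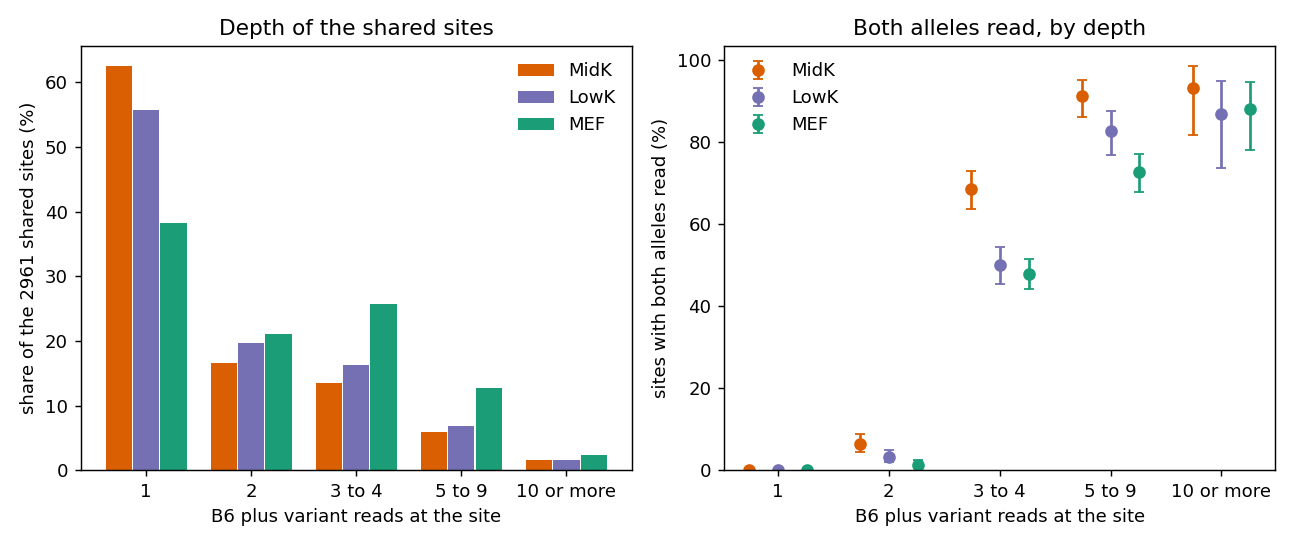
Left, share of the 2961 shared sites (percent) by the number of B6 plus variant reads in MidK, LowK and MEF; right, share of the sites in each depth class with both alleles read, with exact 95% intervals. Single-read sites cannot show both alleles; from 2 to 9 reads the MidK points lie above those of LowK and MEF, with 68.6%, 50% and 47.8% at 3 to 4 reads.

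Most shared sites were variant-only in every library. This held for 1731 sites (58.5%), at which the mean depth was 1.36 reads in MidK, 1.50 in LowK and 1.90 in MEF. All 3 libraries read both alleles at 95 sites (3.21%), with a mean depth of 18.9 reads in MidK, 13.2 in LowK and 11.9 in MEF. Only MidK had both alleles read at 226 sites, only LowK at 202 and only MEF at 443. They were read in MidK and LowK but not MEF at 95 sites, in MidK and MEF but not LowK at 92, and in LowK and MEF but not MidK at 77. Among the 69 sites with at least 5 reads in each library, 48 had both alleles read in all 3, 1 was variant-only in all 3, and 10 had both alleles in MidK and LowK while variant-only in MEF.

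Pairs of libraries agreed in state at 79.8% of the shared sites for MidK and LowK, 71.6% for MidK and MEF, and 71.9% for LowK and MEF. At sites listed in just that pair the agreement was 81.5% for MidK and LowK, 77.5% for MidK and MEF, and 77.3% for LowK and MEF. The shallower library of a pair had 1 read, and so could only be variant-only, at most of the shared sites. These were 2324 sites for MidK and LowK, 2228 for MidK and MEF, and 2085 for LowK and MEF. Agreement at them was 85.2%, 76.0% and 77.4%, in the same order of pairs. Where the shallower library of a pair had 2 to 4 reads, agreement was 56.1% in each of the 3 pairs. Where it had at least 5 reads, agreement was 84.9% of 93 sites for MidK and LowK, 73.1% of 93 for MidK and MEF, and 77.5% of 111 for LowK and MEF.

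Over all depths, the order of the libraries near gene starts differed from that more than 5 kb away. Mean depth stood in the order of the both-allele shares far from starts but not near them. At the 294 shared sites within 1 kb of a start the mean depth was 3.80 reads in MidK, 3.84 in LowK and 3.76 in MEF, and 125 of the sites had 2 to 4 reads in MidK, 146 in LowK and 152 in MEF. There 139 sites had both alleles read in MidK (47.3%, 41.5% to 53.2%), as had 120 in LowK (40.8%, 35.1% to 46.7%) and 93 in MEF (31.6%, 26.4% to 37.3%). The intervals of MidK and MEF did not overlap, while that of LowK overlapped both. With 1 site kept per 300 bases the shares were 46.1% in MidK (38.9% to 53.4%), 44.6% in LowK (37.4% to 51.9%) and 30.1% in MEF (23.7% to 37.1%). The LowK interval then lay above that of MEF as well. At the shared sites more than 5 kb from a start the shares were 13.7% in MidK, 12.9% in LowK and 22.9% in MEF, at mean depths of 2.24, 2.11 and 2.78 reads in MidK, LowK and MEF. Variant reads were 66.8% of the allele reads within 1 kb of a start in MidK (64.0% to 69.6%), 77.1% in LowK (74.5% to 79.5%) and 79.7% in MEF (77.2% to 82.1%). Of the 294 sites, 6 lay in the group at the distal end in Asmt and were deep. Without them the mean depth was 3.13 reads in MidK, 3.43 in LowK and 3.38 in MEF, both alleles were read at 46.2% in MidK, 39.6% in LowK and 30.2% in MEF, and the variant share was 71.1% in MidK, 81.1% in LowK and 81.0% in MEF.

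Against MEF, discordant sites ran in opposite directions near and far from starts for both MidK and LowK, whereas MidK against LowK ran the same way at both distances. Within 1 kb, both alleles were read in MidK and the variant alone in MEF at 86 sites, against 40 sites with the opposite pattern. More than 5 kb away these numbers were 217 and 446. With 1 site kept per 300 bases they were 57 and 26 near starts and 169 and 370 far from them. For LowK against MEF the numbers were 74 and 47 near starts and 206 and 454 far from them. With 1 site kept per 300 bases these were 57 and 29 near starts and 166 and 386 far from them. For MidK against LowK, over every shared site, the numbers were 63 and 44 near starts and 235 and 216 far from them. These counts are not matched for depth. More than 5 kb away MEF was also the deepest library, with a mean of 2.78 reads against 2.24 in MidK and 2.11 in LowK.

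At exactly 3 reads, where depth is held equal, the gap between MidK and MEF was present at both distances. Near starts both alleles were read at 70.0% of 50 sites in MidK, 51.8% of 56 in LowK and 31.4% of 51 in MEF. More than 5 kb away the shares were 60.4% in MidK, 46.0% in LowK and 43.4% in MEF. Sites outside the shared set with 3 reads near starts had both alleles at 70.4% in MidK, 47.7% in LowK and 40.0% in MEF, and far from starts at 68.9%, 49.1% and 41.1% in MidK, LowK and MEF. The libraries thus stood in the same order at 3 reads in all 4 of these sets. The change of order between near and far, seen over all depths, was absent at exactly 3 reads. At exactly 2 reads near starts no shared site had both alleles read, among 42 in MidK, 49 in LowK and 59 in MEF. More than 5 kb away the shares at 2 reads were 6.38% in MidK, 3.76% in LowK and 1.50% in MEF. The part that a library-wide difference in how sites were listed has in the near-start result was not tested.

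**Figure D3:**
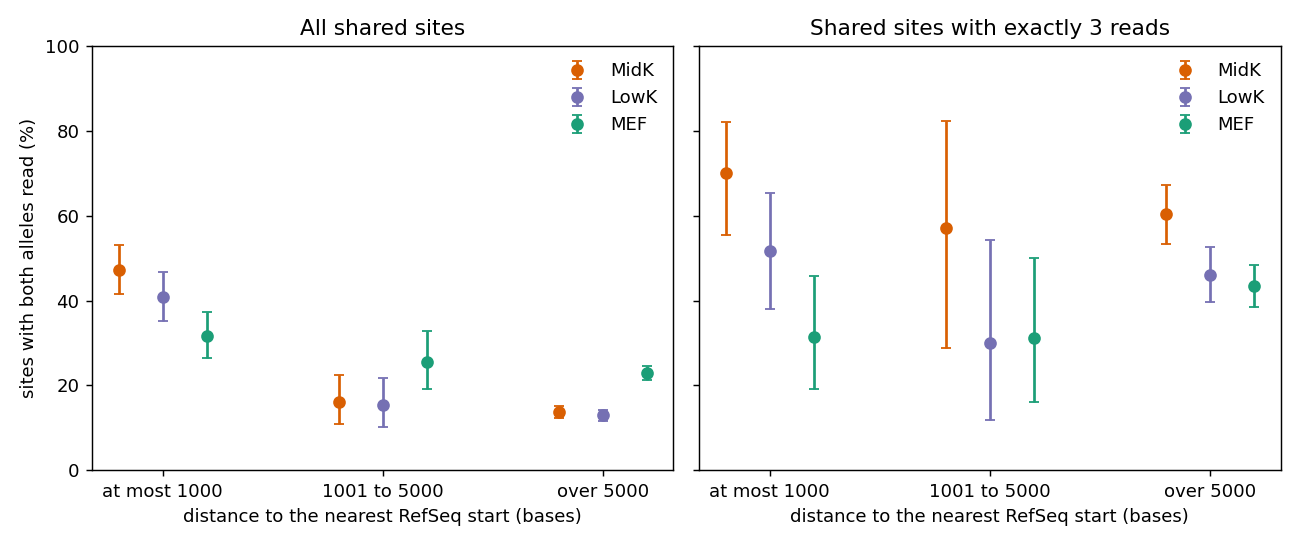
Share of shared sites with both alleles read (percent) in MidK, LowK and MEF, by distance to the nearest RefSeq start; left, all shared sites, right, sites with exactly 3 reads in the library plotted, bars being exact 95% intervals. On the left MidK lies highest within 1000 bases (47.3%, against 31.6% in MEF) and MEF lies highest beyond 5000 bases (22.9%, against 13.7% in MidK).

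Single starts varied. At the 75 shared sites in promoter windows, both alleles were read at 35 in MidK, 34 in LowK and 16 in MEF, on 221 reads in MidK, 275 in LowK and 247 in MEF. Both were read in MidK and the variant alone in MEF at 26 of the 75 sites, with the opposite at 7. For LowK against MEF these numbers were 24 and 6. Some of the 60 windows overlap, and merging those that share a site left 52 sets of sites. A B6 read was present in MidK and absent in MEF in 18 of the 52 sets, the opposite was seen in 3, both libraries had one in 8 and neither in 23. Neighbouring sites can also be covered by the same reads, so the sites of 1 set are not independent.

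Klhl15 encodes a substrate adaptor of a cullin ubiquitin ligase. Its sites 34 and 27 bases before the start, G94234896C and T94234903C in genome coordinates, had 3 B6 and 3 variant reads each in MidK and 4 B6 and 3 variant reads each in LowK. In MEF they had no B6 read and 7 and 5 variant reads. Cited1 encodes a transcriptional co-activator that binds CBP and p300. Its 2 sites summed to 5 B6 and 6 variant reads in MidK, 1 B6 and 9 variant reads in LowK, and 0 B6 and 4 variant reads in MEF. Msl3 encodes a subunit of the MSL histone acetyltransferase complex. It had 4 B6 and 5 variant reads in MidK, 1 B6 and 4 variant reads in LowK, and 0 B6 and 4 variant reads in MEF. Nup62cl, whose window overlaps that of Dnaaf6b, had 2 B6 and 5 variant reads in MidK, 0 and 8 in LowK, and 0 and 5 in MEF. These 4 windows, picked after their values were seen, all had B6 reads in MidK and none in MEF, as had 5 of all 13 windows with 2 sites, the overlapping Dnaaf6b window included. The opposite was seen in 2 of the 13. Xk, a gene of a red cell membrane transporter, had 0 B6 and 3 variant reads in MidK, 0 and 2 in LowK, and 6 and 7 in MEF, and Gpkow had 0 and 2 in MidK, 2 and 4 in LowK, and 1 and 5 in MEF. Of the rest, 3 had B6 reads in both MidK and MEF and 3 in neither. If every read counted were a separate one, the absence of B6 reads in MEF would still allow some B6 share. A rough limit, 3 counts over the total for counting error alone, is 25% at Klhl15, 75% at Cited1, 75% at Msl3 and 60.0% at Nup62cl. This rule is coarse at 4 to 12 reads, and exact intervals were not computed for these 4 totals. Each total sums 2 neighbouring sites, and a read that spans both is counted at both. Where reads are shared the limits are therefore higher than these.

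The 3 printed windows with more sites differed less between MidK and MEF. Cldn34c1, a claudin-family gene with close copies nearby, had 15 B6 and 15 variant reads at its 6 sites in MidK, 18 and 24 in LowK, and 14 and 15 in MEF. Whether the reads at Cldn34c1 come from more than 1 copy was not tested. Cenpi encodes a centromere protein needed for kinetochore assembly. Its 5 sites had 1 B6 and 13 variant reads in MidK, 0 and 8 in LowK, and 0 and 12 in MEF. Gm44504 had 1 B6 and 7 variant reads in MidK, 0 and 8 in LowK, and 2 and 12 in MEF.

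Most shared sites sat alone. Joining neighbours at most 300 bases apart gave 2431 groups, of which 2045 held a single site, 296 held 2, 60 held 3 and 30 held 4 or more. The 386 groups of at least 2 sites contained 916 sites (30.9%) and had a median span of 13 bases. In 157 of them (40.7%) every site had the same read counts as its neighbours in each library, as happens when the same reads cover all of them. Within 1 kb of a start lay 15.8% of the groups of at least 2 sites and 6.21% of the single sites.

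The largest 2 groups had 9 sites each. The first, chrX:75759751-75760216, lies in 4933407K13Rik, a long noncoding RNA gene of the Dxz4 locus, the hinge between the large domains into which the inactive X folds. Its 9 sites had 1 to 6 reads in MidK, 7 to 18 in LowK and 4 to 16 in MEF, and variant reads were the majority at every one of them in MidK and MEF. In LowK the exception was T75759876G, with 4 B6 and 3 variant reads. The other, chrX:123103397-123103643, is the group at the start of Cldn34c1. There T123103422A carried more B6 than variant reads in each library, with 7 B6 and 2 variant reads in MidK, 12 and 5 in LowK, and 7 and 3 in MEF.

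Hprt encodes an enzyme of purine salvage. Its group of 6 sites, chrX:52988092-52988704, begins 14 bases from a start, and it had a variant share of 43.3% in MidK (25.5% to 62.6%), 83.3% in LowK (65.3% to 94.4%) and 84.0% in MEF (63.9% to 95.5%). The MidK interval lay below both others. The low MidK share came from a neighbouring pair of sites: C52988338G had 7 B6 and 2 variant reads and C52988345G had 9 and 3 in MidK, against 0 B6 and 5 to 6 variant reads at each in LowK and 0 and 5 in MEF. The pair lies 7 bases apart and a read that spans both is counted at both, so the intervals are too narrow. At A52988598G the B6 reads were in LowK and MEF, with 0 B6 and 1 variant read in MidK, 3 and 2 in LowK, and 3 and 3 in MEF. Ddx3x, an RNA helicase gene known to escape X inactivation, had a group of 5 sites at chrX:13281482-13281815. Each of them had both alleles read in MidK, as had 4 of the 5 in LowK and 4 of the 5 in MEF.

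Groups of 6 sites also lay in Atg4a, Mbtps2 and Asmt. At 5 sites 6 groups tied, of which the first 4 in position were named: those in Ddx3x and Hmgb3, at Cenpi and 2564 bases from Gm22359. In Mbtps2, which encodes the site-2 protease of SREBP processing, 4 neighbouring sites had 2 variant reads each in MidK, 4 in LowK and 2 in MEF, with no B6 read. In Atg4a, an autophagy protease gene, G140997401A had 1 B6 and 3 variant reads in MidK, 15 and 8 in LowK, and 3 and 2 in MEF.

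By gene body, the 20 genes with the most shared sites held 229 of them. Bcor led with 21 sites, followed by 4933407K13Rik with 17, Atg4a with 16, the pseudogene LOC115489104 with 15, Il1rapl1 with 14, and Il1rapl2 and Frmpd4 with 13 each. Long genes stood beside short ones: Dmd, the dystrophin gene, had 11 sites or 0.460 per 100 kb, whereas Asmt, the gene of the methyltransferase that finishes melatonin synthesis, had 10 sites or 185 per 100 kb. At 7 sites 10 genes tied, of which the first 2 in position, Lancl3 and Ddx3x, completed the 20.

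**Figure D4:**
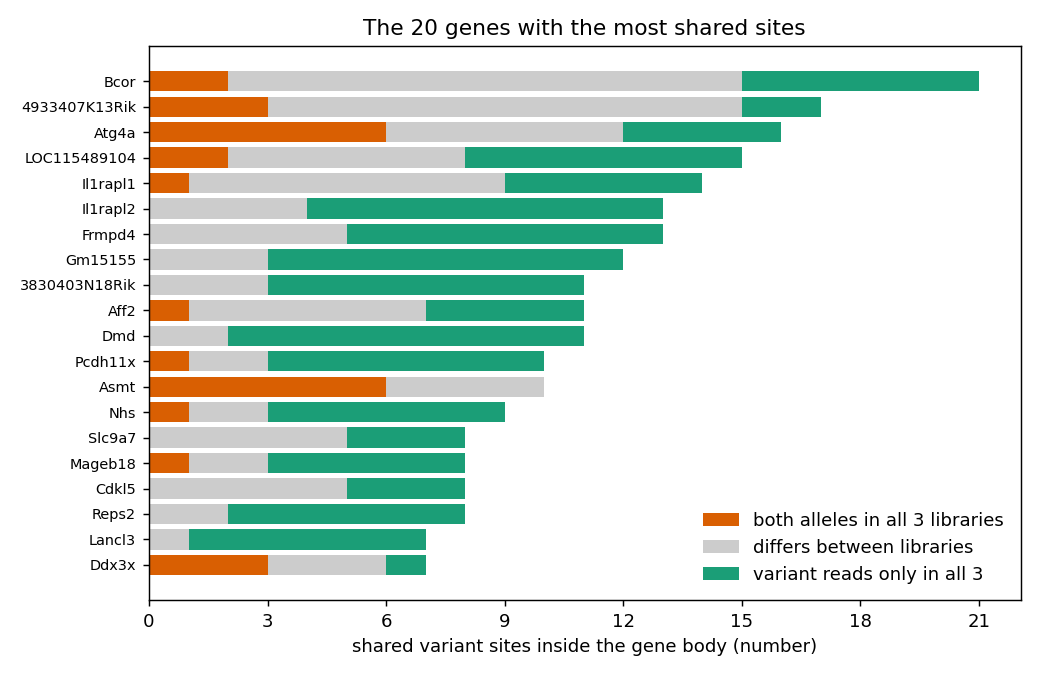
Number of shared sites inside each of the 20 gene bodies that hold the most, divided into sites with both alleles read in all 3 libraries, sites whose state differs between libraries, and sites that are variant-only in all 3. Atg4a and Asmt have 6 sites each with both alleles in all libraries; Dmd and Il1rapl2 have none and are variant-only in all libraries at 9 sites each.

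Bcor encodes a co-repressor that works with BCL6 and a variant Polycomb complex. Its 21 sites had 22 B6 and 41 variant reads in MidK, a variant share of 65.1% (52.0% to 76.7%), against 73.3% (62.6% to 82.2%) in LowK and 82.8% (71.3% to 91.1%) in MEF; the 3 intervals overlapped. Slc9a7, a sodium and proton exchanger gene, had 13 B6 and 17 variant reads in MidK, a variant share of 56.7% (37.4% to 74.5%), against 84.6% (54.6% to 98.1%) in LowK and 100% (75.3% to 100%) in MEF. The Slc9a7 intervals of MidK and MEF did not overlap. Asmt stood at 50.9% (44.1% to 57.7%) in MidK, 51.2% (43.4% to 59.0%) in LowK and 71.2% (63.4% to 78.1%) in MEF, and the MEF interval lay above both others. Ddx3x stood at 58.5% in MidK, 71.4% in LowK and 45.8% in MEF, and its 3 intervals overlapped. LOC115489104 stood at 97.3% (93.3% to 99.3%) in MidK, 94.8% (89.1% to 98.1%) in LowK and 75.2% (67.6% to 81.7%) in MEF, whose interval lay below both others. Of its 39 B6 reads in MEF, 11 and 10 were counted at the neighbouring sites A75644447C and C75644435T. A read over several sites of a gene is counted at each, so the gene intervals given here are too narrow. Il1rapl1, a synaptic receptor gene, had 86.5% in MidK, 86.0% in LowK and 75% in MEF, and Dmd had 100% in MidK, 93.8% in LowK and 94.1% in MEF.

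X-linked genes of 4 lists were looked up. Of 12 genes known to escape X inactivation, 9 held shared sites, 43 in all, and both alleles were read at 15 of them in MidK, 18 in LowK and 23 in MEF. Besides 4933407K13Rik with 17 sites and Ddx3x with 7, these were Car5b with 6 sites, Shroom4 with 4, Mid1 with 3, the histone demethylase gene Kdm6a and Pbdc1 with 2 each, and 5530601H04Rik and Utp14a with 1 each. Among genes of the X-inactivation centre, Ftx had 3 shared sites, Tsix and Rlim had 2 each, and Chic1 had 1. Of 16 pluripotency and germline genes, 8 held 35 sites, 21 of them in Bcor, with both alleles at 11 in MidK, 12 in LowK and 10 in MEF. Of 16 fibroblast and matrix genes, 8 held 25 sites, with both alleles at 2 in MidK, 3 in LowK and 4 in MEF, and 19 of the 25 were variant-only in all libraries. The 25 sites held 36 reads in MidK, 46 in LowK and 66 in MEF. Gpc3, a cell-surface glypican gene, had 7 of the 25 sites and Gpc4 had 5. Over all shared sites both alleles were read at 17.2% in MidK, 15.8% in LowK and 23.9% in MEF, at mean depths of 2.37, 2.31 and 2.89 reads. The lists were not matched to that depth, and whether their both-allele shares differ from all shared sites at equal depth was not tested.

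The variant share pooled over all shared sites was 79.1% in MidK (78.1% to 80.0%), 84.6% in LowK (83.8% to 85.5%) and 81.1% in MEF (80.2% to 81.9%). As the mean over sites it was 93.2% in MidK, 94.4% in LowK and 90.9% in MEF, because sites with 1 read can only be at 100%. At the 69 sites with at least 5 reads in each library it was 62.9% in MidK (60.7% to 65.1%), 66.1% in LowK (63.4% to 68.7%) and 63.9% in MEF (61.0% to 66.7%), and these intervals overlapped. The requirement of a variant read in each library pushes all of these shares upward.

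The distal end of the chromosome weighed heavily in those sums. In mice of the C57BL/6J strain the boundary of the pseudoautosomal region, which pairs with the Y chromosome and is not silenced as the rest of the X is, lies within Mid1. From the start of the Mid1 gene body on, there were 27 shared sites (0.912%), the first and last of which bound chrX:169762136-170843149, with a median depth of 30 reads in MidK, 17 in LowK and 17 in MEF. They held 17.1% of the shared-site reads in MidK, 10.3% in LowK and 7.18% in MEF. The variant share there was 53.1% in MidK (50.3% to 56.0%), 55.9% in LowK (52.2% to 59.7%) and 53.4% in MEF (49.4% to 57.4%). Both alleles were read at 20 of the 27 sites in MidK, 24 in LowK and 20 in MEF, and at 19 in all libraries. At the 2934 sites before Mid1 the variant share was 84.4% in MidK (83.5% to 85.3%), 87.9% in LowK (87.1% to 88.7%) and 83.2% in MEF (82.4% to 84.0%). MidK thus lay below MEF over all shared sites and above MEF without the distal 27, where the intervals overlapped.

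The 10 sites with the highest lowest depth were nearly all at that distal end. The exception was the deepest, T75671991G in the pseudogene LOC115489104. It had 92 variant reads in MidK, 70 in LowK and 73 in MEF, and no B6 read in any library. With no B6 read, the exact interval of its variant share reached down to 96.1% in MidK, 94.9% in LowK and 95.1% in MEF. It was the 1 site with at least 5 reads in each library that was variant-only in all of them. Whether the reads at this site come from more than 1 copy of the sequence was not tested. The other 9 lay from Mid1 up to and including the last shared site, and Mid1, Erdr1 or Asmt was the gene they lay in or nearest to. Of these, C170843149T and C170843144T were far from any gene, at 165095 and 165090 bases from Asmt. C169994675A, 3877 bases from Mid1, had 77 B6 and 59 variant reads in MidK, 30 and 24 in LowK, and 40 and 28 in MEF, which is a variant share of 43.4% in MidK, 44.4% in LowK and 41.2% in MEF. C170673019T in Asmt had 34 B6 and 34 variant reads in MidK, 33 and 22 in LowK, and 20 and 33 in MEF.

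**Figure D5:**
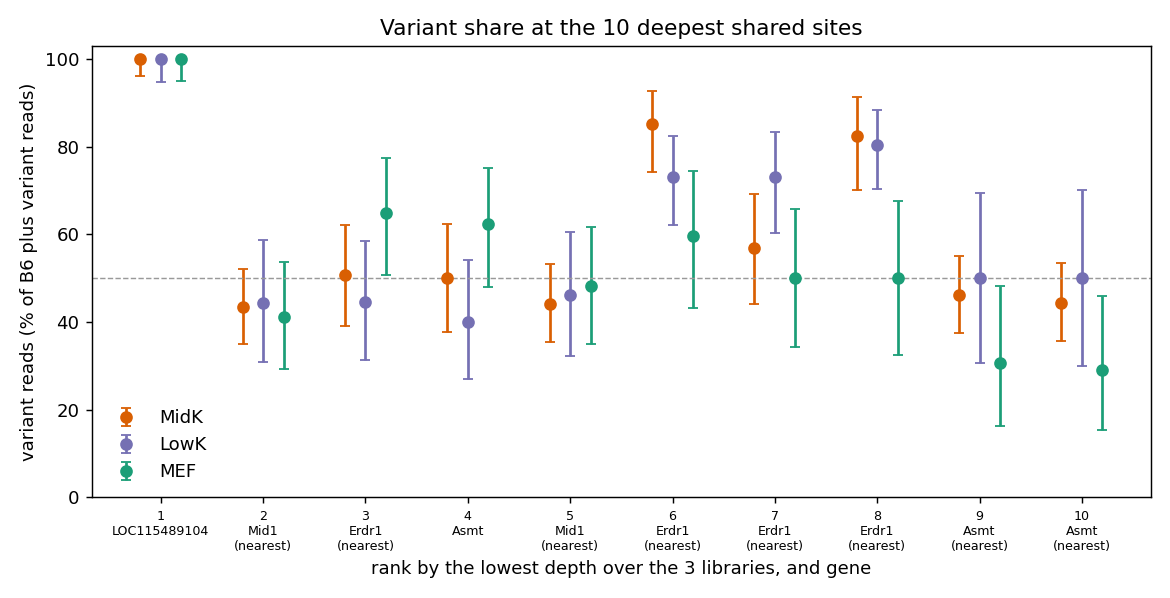
Variant share (percent of B6 plus variant reads) in MidK, LowK and MEF at the 10 shared sites with the highest lowest depth, labelled by the gene they lie in or nearest to; bars are exact 95% intervals and the dashed line marks 50%. The site in LOC115489104 is at 100% in each library, and the values of the other 9 run from 28.9% to 85.1%.

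Sites whose variant share differed between libraries were called by size, as at least 5 reads in both libraries, shares at least 20 percentage points apart and exact 95% intervals that did not overlap. For MidK against LowK, 0 of 93 shared sites were called, where the background over all 185 sites listed in that pair was 0%. For MidK against MEF, 3 of 93 were called, all higher in MidK, where the background was 1.58% (3 of 190 sites). This count fell to 1 with at least 10 reads in both libraries, with 1 site per 300 bases and with a score of at least 20 in each library. For LowK against MEF, 1 of 111 was called, higher in LowK, where the background was 0.386% (1 of 259), and the count fell to 0 with 1 site per 300 bases, without the deepest 1% of sites and without the distal end. The background counts consist of these same sites, so nothing beyond the sites themselves is read from them.

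The 3 sites lay at 2 places. A75644447C and C75644435T, 12 bases apart in LOC115489104, had no B6 read and 8 variant reads each in MidK and 1 B6 and 4 variant reads each in LowK. In MEF they had 11 B6 and 4 variant reads at A75644447C, a variant share of 26.7% (7.79% to 55.1%), and 10 B6 and 5 variant reads at C75644435T, a variant share of 33.3% (11.8% to 61.6%). G170005358C, 5168 bases from Erdr1, had 10 B6 and 47 variant reads in MidK (82.5%, 70.1% to 91.3%), 16 and 66 in LowK (80.5%, 70.3% to 88.4%), and 17 and 17 in MEF (50%, 32.4% to 67.6%). It was called in both comparisons with MEF, which share the MEF library. Of the shared sites with at least 5 reads in both libraries, 47 had a higher variant share in MidK and 44 in MEF, with a median difference of 0.38 percentage points, MidK minus MEF.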

How the data were processed

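The authors isolated LSD1-bound chromatin, sequenced it on an Illumina instrument and, per the series' design text, called variants with bcftools mpileup. The submitters' processing notes name the aligner BWA and the build mm10, and no source used here states versions, read filters or whether duplicates were removed. The authors' deposited counts are the depth and the reads with each base, by column heading. The deposited score is headed reliability and served as a filter in 1 alternative; in the MidK list its column heading carries another prefix than the other MidK columns, so its origin is uncertain.

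Single-base entries whose position occurred once per list were kept: 119257 in MidK, 186841 in LowK and 411944 in MEF, with 203350, 295240 and 883058 reads by allele in MidK, LowK and MEF. Groups came from the sample titles, with 1 library each, so a size rule took the place of p-values. Shares have exact 95% Clopper-Pearson intervals. Intervals and limits cover counting error only: there are no molecular identifiers, and a read over several sites is counted at each. Gene bodies and starts came from RefSeq tables of GRCm38.p6. Genes named are the 20 with the most shared sites and every listed gene holding one; sites named are the 10 with the highest lowest depth and up to 3 called per pair; groups named are the 10 with the most sites, ties taken by position. The promoter windows printed, the distance classes around starts and the split at Mid1 were chosen after values were seen. The shared sites and the gene lists were chosen with earlier results of these data known. Cnbp2 was not found in the gene table. Totals of the X-inactivation centre list are not reported here. Alternatives varied the left-out windows, thinning, depth, score, gene flanks, the joining gap, the both-allele rule and the size rule. The calculations were tested on simulated data with known answers and used Python 3.11.15, pandas 2.3.3, NumPy 2.4.6 and SciPy 1.17.1.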

Additional observations from a re-analysis of the deposited data

How the results depend on the processing

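Of 149 values recomputed under alternatives, 69 stayed within the spread of the value reported and 80 moved. No difference called by the size rule reversed. The order of the libraries in both-allele share did change. MEF was highest over all shared sites, at 23.9%, against 17.2% in MidK and 15.8% in LowK. MEF was lowest with at least 5 reads in each library, where the intervals overlapped. MEF was also lowest with a score of at least 20 in each library. There the MEF interval (34.5% to 45.6%) lay below that of MidK (48.9% to 60.2%). In the other alternatives for this share MEF stayed highest. No paired analysis was possible because each group has 1 library.

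Asking for at least 5 reads in each library left 69 sites in 46 groups, with mean depths of 27.5 in MidK, 18.2 in LowK and 16.4 in MEF, 58.0% inside gene bodies and 33.3% within 1 kb of a start. Both alleles were then read at 88.4% in MidK, 91.3% in LowK and 78.3% in MEF, near starts at 100% in MidK, 91.3% in LowK and 65.2% in MEF. State agreement was 88.4% for MidK and LowK and 81.2% for LowK and MEF, and variant shares were 62.9% in MidK, 66.1% in LowK and 63.9% in MEF.

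Asking for a score of at least 20 in each library left 313 sites in 238 groups, with mean depths of 6.82 in MidK, 5.77 in LowK and 5.46 in MEF, 55.3% inside gene bodies and 35.8% within 1 kb of a start. Both alleles were read at 54.6% in MidK, 47.6% in LowK and 39.9% in MEF, near starts at 69.6% in MidK, 56.2% in LowK and 37.5% in MEF. State agreement was 60.4% for MidK and LowK, 56.5% for MidK and MEF and 58.5% for LowK and MEF, variant shares were 67.9% in MidK, 76.5% in LowK and 75.2% in MEF, and 1 site was called between MidK and MEF.

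With both windows kept, mean depths were 3.38 in MidK, 2.79 in LowK and 4.15 in MEF, variant shares were 71.0% in MidK, 78.4% in LowK and 72.0% in MEF, and 1 site was called between MidK and LowK. With 1 site per 300 bases, mean depths were 2.16 in MidK, 2.11 in LowK and 2.71 in MEF, both alleles were read at 15.3% in MidK and 14.4% in LowK, 7.90% of sites lay within 1 kb of a start, 1 site was called between MidK and MEF and 0 between LowK and MEF. Agreement of MidK and LowK was then 81.5%, and variant shares were 82.7% in MidK, 86.6% in LowK and 82.4% in MEF.

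Without the deepest 1% of sites, mean depths were 1.84 in MidK, 2.0 in LowK and 2.63 in MEF, variant shares were 84.1% in MidK, 87.8% in LowK and 83.0% in MEF, and 0 sites were called between LowK and MEF. Without the distal end, an alternative chosen after seeing the data, mean depths were 1.98 in MidK, 2.09 in LowK and 2.71 in MEF, variant shares were 84.4% in MidK, 87.9% in LowK and 83.2% in MEF, and 0 sites were called between LowK and MEF. In both cases the variant share of MidK, the lowest over all shared sites, lay above that of MEF; the 27 distal sites hold 17.1% of the MidK reads and 7.18% of the MEF reads.

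Gene bodies with 5 kb on both sides held 52.0% of the shared sites. Asking for 2 reads of each allele left both-allele shares of 7.46% in MidK, 6.08% in LowK and 11.4% in MEF. With at least 10 reads in both libraries, 1 site was called between MidK and MEF. Within 250 bases of a start lay 4.59% and within 5 kb 15.6% of the shared sites. At exactly 3 reads near starts both alleles were read at 70.0% in MidK and 51.8% in LowK. These distances and the 3-read class were chosen after seeing the data. Depth limits all state calls, since most sites have 1 or 2 reads; the causes of these shifts were not tested.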
